A study of Homo sapiens with 30 samples.

Results

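A synthetic mimic of miR-222-5p was compared with its transfection control in HepG2 cells, a human liver cancer line that keeps many hepatocyte genes switched on. All 6 libraries of the mimic (M-miR-222-5p, M222 below) and all 6 of the mimic control (MC) were taken, which is 12 of the 30 libraries of the series. They formed 4 groups of 3: MC with DMSO, M222 with DMSO, MC with sorafenib and M222 with sorafenib. Every cell in all 4 groups had been transfected with an oligonucleotide by Lipofectamine RNAiMAX in reduced serum medium, and the medium was changed after the transfection. At 24 h after transfection the cells received 10 µM sorafenib, a multikinase inhibitor, or its vehicle DMSO alone, and they were lysed 24 h later. Messenger RNA was counted with a 3′ tag method (QuantSeq), so that each message gives reads near its poly(A) end, and the mature mimic itself is not seen. The cells come from 1 established line, and the study calls its replicates independent without saying whether that means separate cultures, platings or days. P-values measure the spread between these libraries, of which part may be technical.

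The libraries numbered 2 differed from the others in counts and in genes detected. The 4 libraries numbered 2 held 3941570 to 4939876 counts and had a count in 16132 to 16334 genes, while the 8 libraries numbered 1 and 3 held 5691824 to 8756018 counts and had a count in 13252 to 15365 genes. Fewer counts thus went with more genes detected, in MC and M222 alike. The main results are therefore also given without replicate 2. Correlations of log2 CPM between libraries of a group, across 12275 genes, were 0.929 to 0.966. On this measure the libraries numbered 2 did not stand apart. In M222 with DMSO, MC with sorafenib and M222 with sorafenib, replicates 2 and 3 were the closest pair (0.966, 0.963 and 0.965). In MC with DMSO the closest pair was replicates 1 and 2 (0.957). The 9 liver markers checked (ALB, AFP, APOA1, APOB, TTR, SERPINA1, TF, FGB and HNF4A) were present in all 12 libraries and summed to 6991 to 13877 CPM. Of 11 markers of fibroblasts, blood cells and endothelium, 6 (COL1A2, DCN, THY1, PTPRC, CD3E and VWF) had 0 counts in all 12 libraries, and the highest value of any was 8.66 CPM, for HBB.

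A microRNA acts through a protein complex of the Argonaute family, which it guides to messages that pair with its seed, bases 2 to 8 from its 5′ end. Pairing sites lie mostly in the 3′ UTR, and a bound message is translated less and degraded faster, so the usual trace of an added microRNA is a modest fall of many messages that carry its site. The MIR222 gene gives 2 mature strands with different seeds. The 3p strand is the well-known one, with targets such as the cell cycle inhibitor CDKN1B, and the 5p strand was the one used here. The seeds are printed in capitals to show why the strands have separate targets, and sequences and positions are from RefSeq (GRCh38.p14, minus strand).
miR-222-5p (chrX:45747073-45747094): cUCAGUAGccaguguagauccu
miR-222-3p (chrX:45747036-45747056): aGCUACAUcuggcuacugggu

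The message site of miR-222-5p is CTACTGA, the complement of its seed. Genes were put in 4 site classes. An 8mer is CTACTGAA, a 7mer-m8 is CTACTGA without the final A, a 7mer-A1 is TACTGAA and a 6mer is TACTGA, and a gene takes the longest class found in the 3′ UTR of its annotated main transcript (GENCODE 44, GRCh38), on the message strand only. The 8 genes below carry an 8mer, were lower with the mimic in DMSO and in sorafenib, had a mean of at least 5 CPM (counts scaled to library size), lie on chromosomes other than 8, and had the lowest p in the joint test. They are shown because an 8mer is the longest match searched and these genes passed the test, with the site in capitals inside 11 bases of 3′ UTR on each side. Coordinates are GRCh38 and the sequence is that of the message strand. A match is a description of letters and does not show that the site was bound.
PPP2R5E (chr14:63374789-63374818, minus strand): ttctacaaatgCTACTGAAaaaaatctgga
SMIM24 (chr19:3474482-3474511, minus strand): ctgcctgatgtCTACTGAAcagaacttccc
SEPTIN2 (chr2:241353348-241353377, plus strand): ttttatcatttCTACTGAAgttgggaaatt
MAPKAPK2 (chr1:206733630-206733659, plus strand): gaggcactcatCTACTGAAtgacctctcta
EVI5 (chr1:92512294-92512323, minus strand): gtgctaatattCTACTGAAtataatttaag
HLA-B (chr6:31353983-31354012, minus strand): ttcttacttccCTACTGAAaataagaatct
AKAP9 (chr7:92110504-92110533, plus strand): ttcttataaggCTACTGAAgttacatgttt
APOH (chr17:66212034-66212063, minus strand): taaaaataaagCTACTGAAtttattgccgc

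With the mimic 39 genes were lower and 19 higher across the treatments. The test was edgeR's quasi-likelihood fit over all 12 libraries with treatment as a covariate, on 12275 genes that passed its filter on low counts, and a gene was called at a Benjamini-Hochberg adjusted p under 0.05. The 58 called genes are 0.473% of those tested, with 0.318% lower and 0.155% higher, and 1440 genes had an unadjusted p under 0.05. All 58 had 1 sign in DMSO and in sorafenib, although the joint test favours such genes. The falls were the deeper, with log2 fold changes of -1.79 to -0.63 (median -0.99), against 0.48 to 1.22 (median 0.77) for the rises. Of the 39 lower genes 33 carried a 7mer or 8mer site of miR-222-5p, 21 of them an 8mer, and of the 19 higher genes 1 did. For 36 of the 39 each M222 library lay below each MC library of its treatment in both treatments, as for 1.39% of all genes tested. For 18 of the 19 each lay above in the same way, as for 0.79%. The called genes were chosen by low p in these same libraries, so this separation was largely set in advance. Among all tested genes with a 3′ UTR, 21.3% carried a 7mer or 8mer site and 4.22% an 8mer.

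Without the replicate 2 libraries the calls rose to 99 of 12527 genes (0.79%), 71 lower and 28 higher, although fewer libraries were used. Of the 58 genes 49 were also called there, 84.5% of the 58 and 49.5% of the 99. Of the 71 lower genes 58 carried a 7mer or 8mer site, 31 of them an 8mer, and of the 28 higher genes 1 did. The count of calls turned on single libraries. It was 96 without M222_DMSO replicate 2 and 103 without M222_sorafenib replicate 2, 1 without M222_DMSO replicate 1 or replicate 3, and 0 without M222_sorafenib replicate 1 (1191 at an unadjusted p under 0.05) or replicate 3 (1205). Among the controls it was 2 without MC_DMSO replicate 1, 21 without MC_DMSO replicate 3, 38 without MC_sorafenib replicate 1 and 2 without MC_sorafenib replicate 3. All 58 genes kept their direction in the 12 fits that each left out 1 library, with an unadjusted p of at most 0.00182 in edgeR's test. These genes were chosen by low p in the same libraries, so this was largely set in advance and does not measure stability. Of the 9 genes whose call was lost without replicate 2, PBK, RABGAP1 and SNORD13 were lower and MICB, SEC24A, SERP1, TRMT6, PCBP1 and PPP2CA higher.

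Within 1 treatment, with 3 libraries against 3 and the spread estimated over all 12, edgeR called 0 of 12713 genes in DMSO (0.0%, 765 at an unadjusted p under 0.05) and 0 of 12713 in sorafenib (0.0%, 806). DESeq2 called 35 in DMSO and 12 in sorafenib. Without replicate 2, edgeR called 18 in DMSO and 20 in sorafenib. The interaction, which asks whether the mimic acted differently under sorafenib, also gave 0 genes in edgeR (238 at an unadjusted p under 0.05) and 1 in DESeq2. Over all 12275 genes 62.0% had the same sign in both treatments, with 29.3% lower in both and 32.8% higher in both. The correlation across genes of the 2 sets of log2 fold changes was 0.20 (Pearson) and 0.28 (Spearman), a description only, since genes are not independent replicates.

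**Figure D1:**
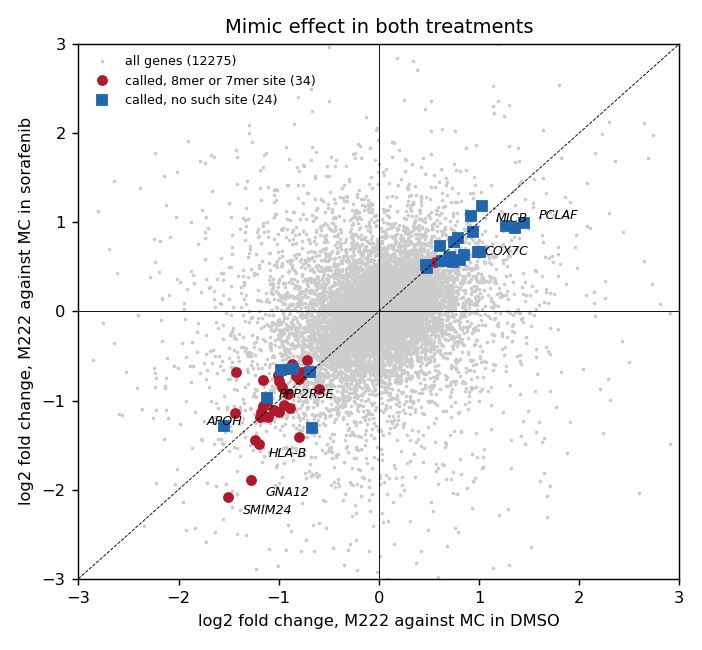
Each point is a gene, placed by its log2 fold change of M222 against MC in DMSO (x axis) and in sorafenib (y axis), with the dashed line marking equal values and points beyond 3 in either direction not drawn. The 58 called genes lie in the lower left and upper right corners, with 33 of the 39 lower ones carrying a 7mer or 8mer site.

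The fold changes were ordered by site class. Genes with an 8mer (456 genes) had a median log2 fold change of -0.29, those with a 7mer-m8 (686) -0.10 and those with a 7mer-A1 (1154) -0.07. Genes with a 6mer alone (1358) stood at 0.02, and genes with none of these sites (7144) at 0.06, beside 0.02 for all genes tested. Both treatments gave the same order, with 8mer medians of -0.28 in DMSO and -0.25 in sorafenib against 0.06 and 0.05 for genes with no site. Without replicate 2 the 8mer median was -0.33 and the no-site median 0.06. Of the 8mer genes 59.2% were lower in both treatments, against 23.7% of genes with no site and 29.3% of all genes.

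Counts by class followed the medians. Lower calls numbered 21 among the 8mer genes (4.61%), 8 among 7mer-m8 (1.17%), 4 among 7mer-A1 (0.347%), 2 among 6mer (0.147%) and 3 among genes with no site (0.042%), against 0.318% of all genes. For 37 of the 456 8mer genes (8.11%) each M222 library lay below each MC library in DMSO and again in sorafenib, against 0.588% of genes with no site. The opposite pattern, each M222 library above, was seen for 2 of them (0.439%) and for 0.938% of genes with no site. Higher calls were 0 among 8mer genes, 1 among 7mer-m8 and 14 among genes with no site. Genes with a longer class also had longer 3′ UTRs, with a median of 3686 bases for 8mer genes and 827 for genes with no site.

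The gap between 8mer and no-site genes was also seen within groups by length. When tested genes were split into 3 groups of equal size by 3′ UTR length, 8mer genes stood at -0.54 in the shortest group (13 genes), -0.32 in the middle one (104) and -0.27 in the longest (339), and genes with no site at 0.07, 0.05 and 0.05. Lengths still differed inside the groups, with medians of 444, 1589 and 4548 bases for 8mer genes and 333, 1283 and 3051 for genes with no site. Genes with 1 site of the 8mer or 7mer-m8 kind (1002) had a median of -0.16 and genes with 2 such sites (126) of -0.25, while the 14 genes with 3 or more stood at -0.13. The seed of the other strand was read in the same way. Genes with an 8mer of miR-222-3p (410) had a median of -0.02, against 0.03 for genes with none of its sites. The seed of miR-512-3p, a mimic used elsewhere in the study, gave -0.003 for its 8mer genes (271) and 0.04 for genes with none.

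**Figure D2:**
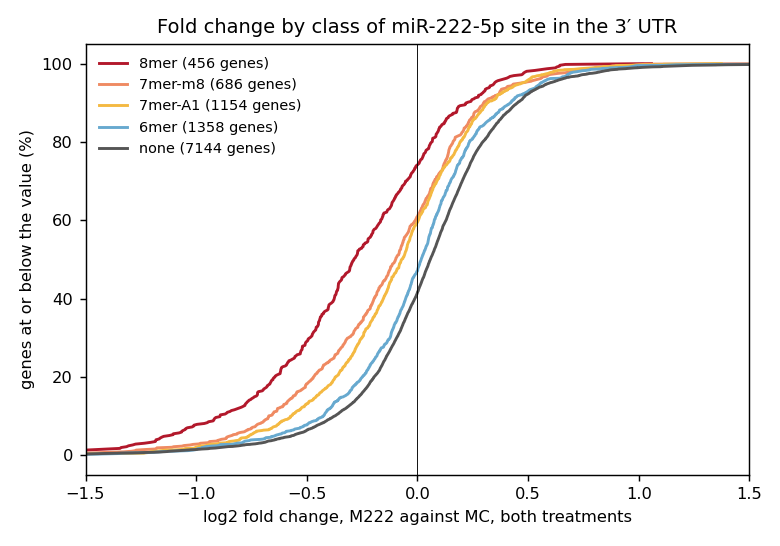
Curves give the share of genes (y axis, percent) with a log2 fold change of M222 against MC over both treatments at or below the value on the x axis, 1 curve per class of miR-222-5p site. The 8mer curve lies farthest to the left, with a median of -0.29, and the curve of genes with no site farthest to the right, with 0.06.

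A score per library showed where replicate 2 differed. For the 398 8mer genes and 6052 no-site genes with a mean of at least 5 CPM, log2(CPM + 1) was centred on the gene's mean over the 6 libraries of a treatment, and the median of no-site genes was taken from that of 8mer genes. In DMSO the score was 0.21, 0.23 and 0.08 in MC replicates 1, 2 and 3 and -0.21, 0.00 and -0.31 in the M222 replicates of the same numbers. In sorafenib it was 0.06, 0.17 and 0.22 in MC and -0.21, 0.04 and -0.24 in M222. For 8mer genes the groups did not overlap in either treatment, and in both the M222 library numbered 2 lay nearest to its control. For 7mer-m8 genes they overlapped in DMSO, with M222 replicate 2 at 0.027 and MC replicate 3 at 0.017, and not in sorafenib. The cause of the smaller gap in the libraries numbered 2 was not tested.

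The miR-512-3p mimic, with 6 libraries of its own, gave a comparison on the same scale. When the score was centred over 9 libraries per treatment, 8mer genes of miR-512-3p lay at -0.15, -0.11 and -0.14 in the 3 miR-512-3p libraries in DMSO and at -0.18, -0.23 and -0.23 in sorafenib. The M222 libraries stood at 0.02 to 0.13 on that score, each above all 6 of those, and the 2 numbered 2 were at 0.07 and 0.13. On the miR-222-5p score, in turn, the miR-512-3p libraries stood at 0.00 to 0.14 and M222 replicates 1 and 3 at -0.34 to -0.21. M222 replicate 2 was at -0.07 in DMSO, below the miR-512-3p libraries, and at 0.02 in sorafenib, within their range.

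**Figure D3:**
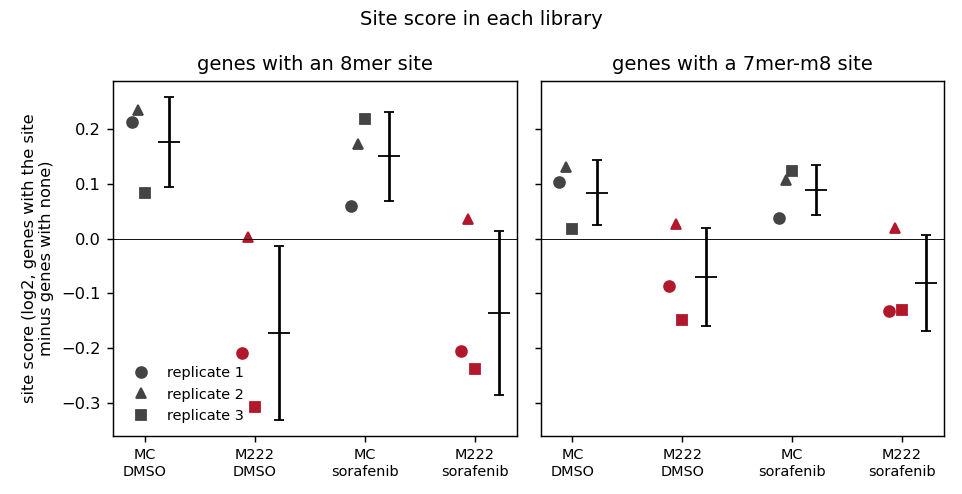
Points are the site score of each library (y axis, log2 units, genes with the site minus genes with none) for 8mer genes (left) and 7mer-m8 genes (right), with marker shape for the replicate number and bars for the mean and SD of 3 libraries. M222 libraries numbered 1 and 3 lie at or below -0.21 for 8mer genes, and the 2 numbered 2 at 0.00 and 0.04, below all MC libraries. For 7mer-m8 genes in DMSO, M222 replicate 2 (0.027) lies above MC replicate 3 (0.017).

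The called genes showed the same order of libraries. Of the 39 lower genes, the M222 library nearest to MC was number 2 for 37 in DMSO and for 34 in sorafenib. The median level of these genes in DMSO was 41.3%, 66.6% and 41.6% of the MC mean in M222 replicates 1, 2 and 3, and in sorafenib 43.7%, 68.4% and 45.2%. For the 19 higher genes it was 171%, 163% and 185% in DMSO and 177%, 149% and 163% in sorafenib. The fall was thus shallower in replicate 2 in both treatments, and the rise less clearly so.

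The 8 genes whose sites are printed above have varied roles. All values that follow are TMM-scaled CPM, given for replicates 1, 2 and 3 in that order, and levels are not compared between genes. Values in parentheses with an SE or p are log2 fold changes over both treatments, and percentages of MC compare the means of 3 libraries. PPP2R5E (ENSG00000154001, chromosome 14, 63371364 to 63543377) encodes a regulatory subunit of the phosphatase PP2A. It stood at 125, 95.3 and 122 in MC and 39.6, 70.8 and 40.5 in M222 in DMSO. In sorafenib it stood at 150.4, 108 and 133 and 51.8, 72.1 and 51.8. The groups did not overlap in either treatment, and the log2 fold change was -1.16 (SE 0.16, edgeR adjusted p 0.00906), the lowest p of all genes tested and a call that held in 10 of the 12 fits without 1 library.

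SMIM24 (ENSG00000095932, chromosome 19, 3473986 to 3480525) encodes a small membrane protein, and it fell the most of all called genes. MC held 111, 119 and 142 and M222 25.4, 76.8 and 29.6 in DMSO. In sorafenib MC held 135, 104 and 95.9 and M222 9.54, 48.1 and 21.5. Each M222 library lay below each control, with a log2 fold change of -1.79 (SE 0.30, edgeR adjusted p 0.02) and of -2.52 without replicate 2 (edgeR adjusted p 7.22e-05). 

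SEPTIN2 (ENSG00000168385, chromosome 2, 241315100 to 241354027) encodes a septin, a filament protein of the cell cortex and of dividing cells. Its values were 239, 234 and 204 in MC and 131, 157 and 106 in M222 in DMSO. They were 204, 224 and 245 and 128, 165 and 119 in sorafenib. The fall was moderate (-0.72, SE 0.12, edgeR adjusted p 0.02), of like size in both treatments and without overlap. HDLBP, on the other strand, overlaps SEPTIN2 and is also expressed.

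MAPKAPK2 (ENSG00000162889, chromosome 1, 206684905 to 206734281) encodes MK2, a kinase activated by p38 that acts on messages with AU-rich elements. It held 94.4, 77.8 and 117 in MC and 33.7, 71.3 and 42.9 in M222 in DMSO. In sorafenib these were 119, 112 and 121 and 63.6, 61.8 and 66.3. In DMSO the M222 library numbered 2 came close to the lowest control, and in sorafenib the 3 M222 libraries lay together near 54.3% of the control mean. The log2 fold change was -0.91 (SE 0.16, edgeR adjusted p 0.02).

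EVI5 (ENSG00000067208, chromosome 1, 92508696 to 92792404) encodes a protein that acts on Rab GTPases and on progress through mitosis, and its 3′ UTR holds 2 8mer sites. Levels were 36.5, 34.2 and 40.4 in MC and 9.71, 21.1 and 10.4 in M222 in DMSO. In sorafenib they were 37.3, 33 and 44.4 and 9.29, 23.1 and 19.5. No M222 library reached a control (-1.29, SE 0.23, edgeR adjusted p 0.02).

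AKAP9 (ENSG00000127914, chromosome 7, 91940840 to 92110673) encodes a large scaffold of the Golgi and centrosome that anchors protein kinase A. Its levels in DMSO were 179, 251 and 168 in MC and 64.4, 124 and 77.7 in M222. In sorafenib they were 216, 189 and 249 and 93.1, 169 and 115. The groups did not overlap (-0.96, SE 0.17, edgeR adjusted p 0.02). CYP51A1, a cholesterol synthesis gene on the other strand, overlaps it and is also expressed.

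APOH (ENSG00000091583, chromosome 17, 66212033 to 66256525) encodes beta-2-glycoprotein I, a plasma protein made by the liver, and its 8mer lies in a 3′ UTR of 100 bases. MC held 983, 977 and 960.4 in DMSO, where the 3 values lay within a narrow range, and M222 364, 566 and 414. In sorafenib MC held 464, 654 and 534 and M222 133, 425 and 158. Each M222 library lay below each control of its treatment, and the mean was 46% of MC in DMSO and 43.4% in sorafenib (-1.15, SE 0.21, edgeR adjusted p 0.02). APOH was the only called gene among 29 tested of a list of coagulation and plasma protein genes.

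**Figure D4:**
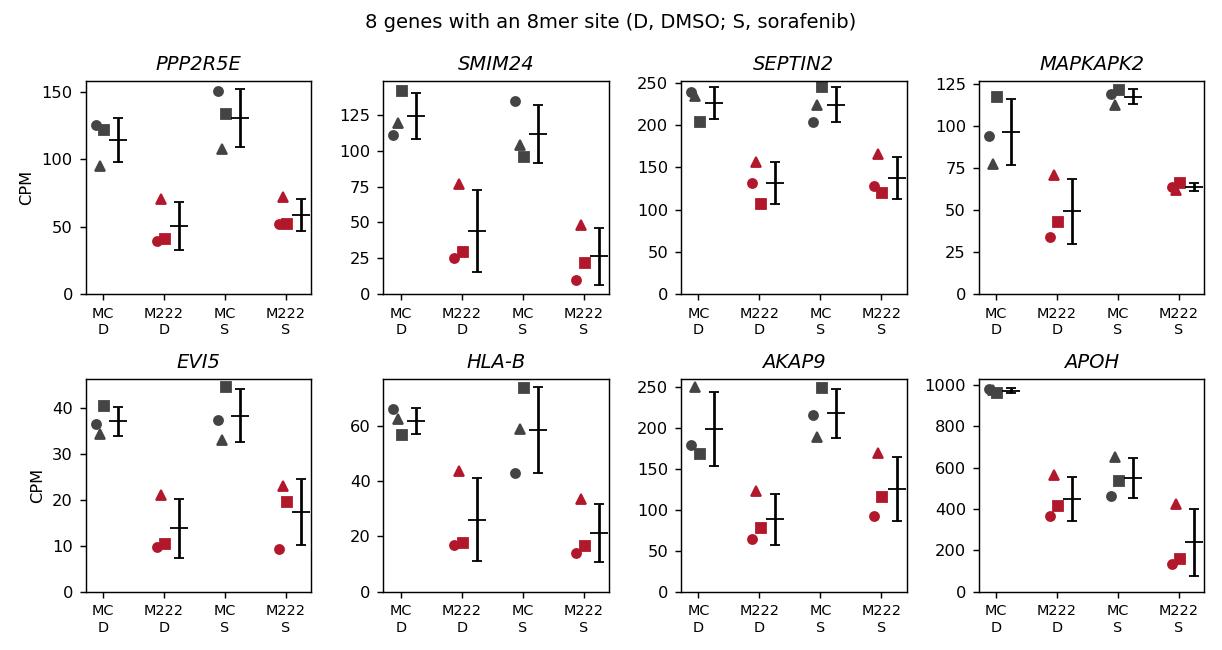
TMM-scaled CPM (y axis, from 0) of the 8 genes with a printed 8mer site in each library of the 4 groups (D, DMSO, S, sorafenib), with circles, triangles and squares for replicates 1, 2 and 3 and bars for the mean and SD of 3. M222 libraries lie below MC libraries of their treatment for each of the 8 genes, as for SMIM24, with means of 35.4% and 23.6% of MC.

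The other called genes follow in groups of like known role. These groups were put together after the values were seen and were not tested, so they show no change of a pathway. HLA-B (ENSG00000234745, chromosome 6, 31353872 to 31367067) encodes a heavy chain of the class I molecules that show peptides to T cells. It held 65.9, 62.3 and 56.5 in MC and 17, 43.5 and 17.7 in M222 in DMSO. In sorafenib it held 42.8, 58.7 and 73.6 and 14.1, 33.4 and 16.5. Both treatments showed a fall without overlap (-1.34, SE 0.24, edgeR adjusted p 0.02). HLA-C (ENSG00000204525), its close relative, has no site in the annotated main transcript and was also lower, to 50.4% of MC in DMSO and 62.4% in sorafenib (-0.81, edgeR adjusted p 0.0183). HLA class I genes share long stretches of sequence, so reads may be split between them and both values are uncertain.

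MICB (ENSG00000204516, chromosome 6, 31494881 to 31511124), a ligand of the activating receptor NKG2D on natural killer cells, moved the other way. Its levels were 22.8, 16 and 11.3 in MC and 37.7, 32.9 and 30.1 in M222 in DMSO. In sorafenib they were 12.6, 15.8 and 11.7 and 35.1, 24.9 and 28.6. All M222 libraries lay above all controls (1.10, SE 0.20, edgeR adjusted p 0.02), and the call was lost without replicate 2 (edgeR adjusted p 0.0502). In a list of 28 tested interferon response genes 0 were called in either direction by edgeR (2 at an unadjusted p under 0.05). Their median was -0.08, with -0.09 in DMSO and 0.05 in sorafenib. UBD, a ubiquitin-like protein induced by interferon gamma, was at -0.96 (edgeR adjusted p 0.111) and STAT2, a mediator of type I interferon signalling, at -0.64 (edgeR adjusted p 0.307).

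Of the called genes with a known role in lipids, SCD (ENSG00000099194, chromosome 10, 100347233 to 100364826), the desaturase that makes monounsaturated fatty acids, has 2 8mer sites. It held 369, 366 and 308 in MC and 162, 233 and 141 in M222 in DMSO. In sorafenib it held 203, 279 and 223 and 59.5, 179.8 and 98.7. The groups stayed apart in both treatments (-0.996, SE 0.19, edgeR adjusted p 0.0273). CPT1A, the enzyme that admits long-chain fatty acids to mitochondria, has only a 6mer and stood at 55% and 62.7% of MC in DMSO and sorafenib (-0.76, edgeR adjusted p 0.0477). PLPP3, a lipid phosphate phosphatase with an 8mer, stood at 55.5% and 61.7%. PON2, a lactonase that limits oxidative damage to lipids, has a 7mer-m8 and stood at 43.9% and 43.8% (-1.18, edgeR adjusted p 0.0404). PLPP3 was called at an edgeR adjusted p of 0.0404. SCD was the only called gene of 18 tested in a fatty acid synthesis list, whose median was -0.05 (0.05 in DMSO, -0.16 in sorafenib). In the cholesterol list edgeR called 0 of 23.

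Some of the lower genes encode signalling proteins. GNA12 (ENSG00000146535, chromosome 7, 2728105 to 2844308) encodes the alpha subunit of a heterotrimeric G protein, and it has 2 8mer sites. It held 72.9, 66.4 and 57.6 in MC and 17.6, 46 and 17.5 in M222 in DMSO. In sorafenib it held 66.4, 59.7 and 63 and 6.32, 32.5 and 12.8. The M222 libraries numbered 1 and 3 stood at 6.32 to 17.6 and those numbered 2 at 46.0 and 32.5 (-1.58, SE 0.30, edgeR adjusted p 0.0228, and -2.29 without replicate 2). ROCK2, a kinase that acts on actomyosin contraction, has a 7mer-m8 and stood at 52.8% and 63.2% of MC (-0.78, edgeR adjusted p 0.0471). ARHGAP12, a GTPase-activating protein, has a 7mer-A1 and stood at 54.4% and 65.3%. MAPK6, the atypical kinase ERK3, has a 7mer-A1 and stood at 53.5% and 46.5% (-0.99, edgeR adjusted p 0.0477).

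Others encode proteins of the cell surface, junctions or polarity. MARVELD2, or tricellulin, a protein of the junction where 3 epithelial cells meet, has an 8mer and stood at 43.8% and 35.4% of MC (-1.34, SE 0.26, edgeR adjusted p 0.0273). LLGL2, a basolateral polarity protein, has a 7mer-m8 and stood at 61.7% and 61.1%. NUMB, an endocytic adaptor that limits Notch signalling, has an 8mer and stood at 46% and 49.2% (-1.06, edgeR adjusted p 0.0388). CD2AP, an adaptor between membrane proteins and actin, has 2 8mer sites and stood at 49.6% and 60.2%. SDC2, a cell surface proteoglycan, has 2 8mer sites and stood at 56.9% and 58.4%. In a list of 21 tested epithelial and mesenchymal genes, which holds none of these, edgeR called 0 (1 at an unadjusted p under 0.05). The list median was -0.03 (-0.11 in DMSO, 0.02 in sorafenib).

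Other lower genes with a 7mer or 8mer site were spread over many functions. ATP5PB, a stalk subunit of the mitochondrial ATP synthase, has an 8mer and stood at 45% and 44% of MC (-1.16, edgeR adjusted p 0.0471). TMEM245, a membrane protein with a 7mer-m8, stood at 44.4% and 47.6% (-1.11, edgeR adjusted p 0.0183). Further cases were NEU3 (a sialidase), GCNT2 (a glycosyltransferase of the blood group I antigen), NBEAL1, SCAF11 and PDS5A (a regulator of cohesin) with an 8mer, PBK (a mitotic kinase), KIAA1191, PAWR (a pro-apoptotic protein) and RABGAP1 with a 7mer-m8, and DDI2 (an aspartic protease) and BECN1 (beclin 1, of autophagy) with a 7mer-A1. Their log2 fold changes were -1.10 to -0.63.

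Only 6 of the 39 lower genes had no 7mer or 8mer site in the annotated 3′ UTR. They were CPT1A and HLA-C, described above, and SCGN, EMC6, GOLGB1 and SNORD13. SCGN encodes secretagogin, a calcium-binding protein, and stood at 35.1% and 40.4% of MC (-1.41, edgeR adjusted p 0.0481). EMC6, a subunit of the complex that inserts membrane proteins at the endoplasmic reticulum, stood at 62.6% and 39.8% (-0.99, edgeR adjusted p 0.0218). GOLGB1, or giantin, a Golgi tether, has a 6mer and stood at 61.2% and 61.3%. SNORD13 is a small nucleolar RNA, outside the polyadenylated messages the method is made for, and its value is uncertain.

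Among the 19 genes that rose, the largest change was that of PCLAF (ENSG00000166803, chromosome 15, 64364304 to 64387687), which binds the replication clamp PCNA. It held 98.5, 137 and 61.5 in MC and 313, 229 and 254 in M222 in DMSO. In sorafenib it held 65.4, 189 and 77.9 and 209, 246 and 190.4. Each M222 library lay above each control of its treatment, with the MC library numbered 2 the nearest from below (1.22, SE 0.23, edgeR adjusted p 0.0218, and 1.68 without replicate 2). In a list of 33 tested DNA replication genes, 18 were higher and 2 lower in both treatments, against 32.8% and 29.3% of all genes. The list median was 0.20, with 0.37 in DMSO and 0.06 in sorafenib, where all genes tested stood at 0.015 and 0.015. None of the 33 was called by edgeR in either direction (9 at an unadjusted p under 0.05). The members with the lowest p were GINS2 (0.42, edgeR adjusted p 0.174) and RRM2 (0.41, edgeR adjusted p 0.237). In DMSO and in sorafenib GINS2 was at 0.58 and 0.25 and RRM2 at 0.53 and 0.28.

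COX7C (ENSG00000127184, chromosome 5, 86617928 to 86620962), a small subunit of cytochrome c oxidase, rose from 85.9, 173 and 93.3 in MC to 283, 292 and 260.4 in M222 in DMSO. In sorafenib the values were 96.8, 229.7 and 96.6 in MC and 252, 281 and 268 in M222. The controls numbered 2 were the highest of each control group and still lay below all M222 libraries (1.11, SE 0.20, edgeR adjusted p 0.02). Of 17 tested genes of the mitochondrial genome itself edgeR called 0 (1 at an unadjusted p under 0.05). Their median was 0.09, with 0.20 in DMSO and 0.01 in sorafenib.

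Some of the genes that rose serve the early secretory pathway. SSR3 (ENSG00000114850, chromosome 3, 156539553 to 156555149), a subunit of the translocon-associated complex, held 212, 317 and 201 in MC and 405, 393 and 415 in M222 in DMSO. In sorafenib it held 315, 408 and 359 and 674, 530.0 and 614. The groups did not overlap (0.77, SE 0.12, edgeR adjusted p 0.0183). SEC11A, a catalytic subunit of signal peptidase, rose to 178% and 152% of MC in DMSO and sorafenib (0.74, edgeR adjusted p 0.02). SEC24A, a cargo adaptor of COPII vesicles, rose to 251% and 187% (1.14, edgeR adjusted p 0.0218). SERP1, which protects unfolded membrane proteins under stress, rose to 152% and 145% (0.60, edgeR adjusted p 0.0346). This grouping was made after the values were seen and was not tested.

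The remaining rises covered the sorting factor VPS37C, the membrane protein LHFPL2, the dynein adaptor BICD2, the immunophilin FKBP1A, the splicing-associated isomerase PPIL1, the tRNA methyltransferase subunit TRMT6, the RNase P subunit POP7, the RNA-binding protein PCBP1, the Wnt inhibitor NKD1, the host RNA SNHG16, C15orf61 and PPP2CA. Their log2 fold changes were 0.48 to 1.00. PPP2CA, the catalytic subunit of PP2A, held 106 ± 10.3 in MC and 145 ± 12 in M222 in DMSO (mean ± SD, n = 3). In sorafenib it held 147 ± 1.47 and 202 ± 15.2. The rise was small and free of overlap, while the regulatory subunit PPP2R5E fell. NKD1, with a 3′ UTR of 15468 bases, was the only one of the 19 with a 7mer or 8mer site (0.56, edgeR adjusted p 0.0499961).

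Without replicate 2 further genes were called that the same model on all 12 libraries did not call. ANKRD1, a target of the YAP pathway with a 7mer-m8, held 225, 324 and 278 in MC and 65.4, 296 and 96.6 in M222 in DMSO, and the groups overlapped through M222 replicate 2 (-1.60 without replicate 2, edgeR adjusted p 6.71e-05, and -0.94 with it, edgeR adjusted p 0.174). Low levels of ANKRD1 were also seen with the miR-512-3p mimic in DMSO (60.8, 94.2 and 100.4). Against that mimic M222 was at 0.37 over both treatments (edgeR adjusted p 0.717). KPNB1, importin beta, has a 7mer-m8 and went from -0.80 (edgeR adjusted p 0.0898) to -1.16 (edgeR adjusted p 0.00024). PLA2G2A, a secreted phospholipase, went from 1.35 (edgeR adjusted p 0.0626) to 1.95 (edgeR adjusted p 0.014). UCHL3 (a ubiquitin hydrolase), HIF1AN (the asparagine hydroxylase of HIF1A) and PIP4K2B (a lipid kinase) were higher, at 1.15, 1.11 and 1.35 without replicate 2. With all libraries UCHL3 was at 0.73 and HIF1AN at 0.87 (edgeR adjusted p 0.143 and 0.0748).

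The same fit called a few members of lists that had none with all libraries. AURKA, the mitotic kinase Aurora A with an 8mer, was at -0.76 (edgeR adjusted p 0.0399), against -0.53 with all libraries (edgeR adjusted p 0.194). PPP2R2A, another PP2A regulatory subunit with an 8mer of the 5p strand and a reported target of the 3p strand, was at -0.97 (edgeR adjusted p 0.0158). With all libraries it was at -0.60 (edgeR adjusted p 0.2). LSS and TM7SF2, enzymes of cholesterol synthesis, were at -1.95 and -1.38 (edgeR adjusted p 0.0346 and 0.0382). With all libraries they were at -1.15 and -1.16 (edgeR adjusted p 0.237 and 0.0616). CEBPB, a transcription factor of stress and acute phase genes, was at 0.95 and CHMP2A, a subunit of ESCRT-III, at 1.25 (edgeR adjusted p 0.0476 and 0.0412). With all libraries CEBPB was at 0.74 and CHMP2A at 0.82 (edgeR adjusted p 0.158 and 0.161).

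By list, few members were called. List values are medians of log2 fold changes over both treatments, counts are of genes with 1 sign in both treatments, and a gene said to be at a value has that log2 fold change. Among all genes tested 32.8% were higher and 29.3% lower in both treatments. For edgeR's joint test 1440 of all 12275 had an unadjusted p under 0.05, and their median was 0.02. The stress and unfolded protein response list had the highest median, 0.26 (0.14 in DMSO, 0.35 in sorafenib), with 18 of 29 tested genes higher and 3 lower in both treatments and 0 called by edgeR (9 at an unadjusted p under 0.05). The mitosis list stood at 0.18, with 18 of 30 higher and 4 lower in both and 0 called (9 at an unadjusted p under 0.05), while AURKA was at -0.53. Of the p53 targets BTG2, an anti-proliferative protein, was at 1.18 (edgeR adjusted p 0.267) and TP53INP1, which has an 8mer, at -1.10 (edgeR adjusted p 0.144). The p53 target list stood at 0.13 (14 of 26 higher, 6 lower in both), and growth factor receptors and the RAS-ERK pathway at 0.14 (15 and 10 of 38). Endosome and vesicle traffic stood at 0.08 (16 and 6 of 34) and apoptosis regulators at 0.08 (9 and 4 of 30). Each of the p53, growth factor, traffic and apoptosis lists had 0 calls by edgeR over the 12 libraries (5, 6, 5 and 0 at an unadjusted p under 0.05). In DMSO and in sorafenib the p53 list stood at 0.20 and 0.05. The growth factor list stood at 0.07 and 0.02, both below its median over both treatments.

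Over both treatments the metabolic lists lay nearer to 0. In DMSO and in sorafenib glycolysis stood at 0.22 and -0.03 and cholesterol synthesis and uptake at -0.09 and 0.14, with opposite signs. The citric acid cycle stood at 0.10 and 0.05 and proteasome subunits at 0.06 and 0.04. Their counts stand beside 32.8% of all genes higher and 29.3% lower in both treatments. Glycolysis stood at 0.07 (7 of 18 higher and 2 lower in both treatments), the citric acid cycle at 0.05 (9 and 5 of 21), cholesterol synthesis and uptake at 0.02 (10 and 7 of 23) and proteasome subunits at 0.03 (14 and 9 of 31), with 0 calls each by edgeR (2, 2, 3 and 4 at an unadjusted p under 0.05). With library totals in place of TMM scaling the citric acid, cholesterol and proteasome medians changed sign, as did that of the TGF-beta and SMAD pathway. That pathway stood at 0.02 (0.02 in DMSO, -0.06 in sorafenib). Of its 28 tested genes 12 were higher and 12 lower, with 0 called by edgeR (5 at an unadjusted p under 0.05). DLST, a subunit of the oxoglutarate dehydrogenase complex of the cycle, was low in these cells, with means of 2.41 ± 1.26 and 0.61 ± 0.459 CPM (SD, n = 3) in MC and M222 in DMSO and 7.69 ± 3.04 and 2 ± 1.45 in sorafenib. Its groups did not overlap and its log2 fold change of -1.98 did not pass the test (edgeR adjusted p 0.174). ALDOA and GAPDH, enzymes of glycolysis, were at 0.33 and 0.29 (edgeR adjusted p 0.275 and 0.419). In DMSO and in sorafenib ALDOA was at 0.46 and 0.19 and GAPDH at 0.43 and 0.15.

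Lists of liver genes lay a little below 0. Coagulation and plasma protein genes stood at -0.09, with 15 of 29 lower and 3 higher in both treatments, where 29.3% and 32.8% of all genes were. Hepatocyte transcription factors stood at -0.11, or 0.05 without replicate 2, and at -0.01 in DMSO and -0.24 in sorafenib. Of 13 tested, 5 were lower and 3 higher in both, and 0 were called by edgeR (2 at an unadjusted p under 0.05). Among them FOXA3, which opens liver chromatin, was at -0.62 (edgeR adjusted p 0.269). The microRNA machinery stood at -0.07 (7 of 17 lower and 2 higher in both, 0 called by edgeR, 5 at an unadjusted p under 0.05), with PRKRA, a partner of Dicer, at -0.73 (edgeR adjusted p 0.0608) and DICER1 itself at -0.45 (edgeR adjusted p 0.161).

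Known targets of the 3p strand were not called with all libraries, and PPP2R2A is the member called without replicate 2. Of 14 listed, 9 were tested, with 4 lower and 1 higher in both treatments and 0 called by edgeR (1 at an unadjusted p under 0.05). The median was -0.17, or -0.31 without replicate 2, and values ran from -1.13 for RECK to 0.25 for BMF. Of the 9 tested 5 (55.6%) carry a 7mer or 8mer site of the 5p strand, against 21.3% of all tested genes with a 3′ UTR. The study's own list of miR-222-5p genes, which the study chose on these samples and is no independent evidence, had 23 of 24 tested and 0 called by edgeR (1 at an unadjusted p under 0.05). Its median was 0.23 in DMSO and -0.26 in sorafenib, and 4 genes were lower and 5 higher in both treatments. The study reports SNAI1 and CDH6 of this list as higher and the rest as lower, so these pooled values mix both directions. It chose genes by cut-offs on mean counts and fold change, as changed with the mimic and not in its transfection control. That rule differs from the test used here, so the 0 calls do not bear on it directly. RB1, the retinoblastoma protein with an 8mer, was at -0.78 (edgeR adjusted p 0.498), with -0.18 in DMSO and -1.41 in sorafenib. Its groups overlapped in both treatments. SERPINC1, antithrombin, was at -0.48 (edgeR adjusted p 0.389), with -0.12 in DMSO and -0.84 in sorafenib.

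**Figure D5:**
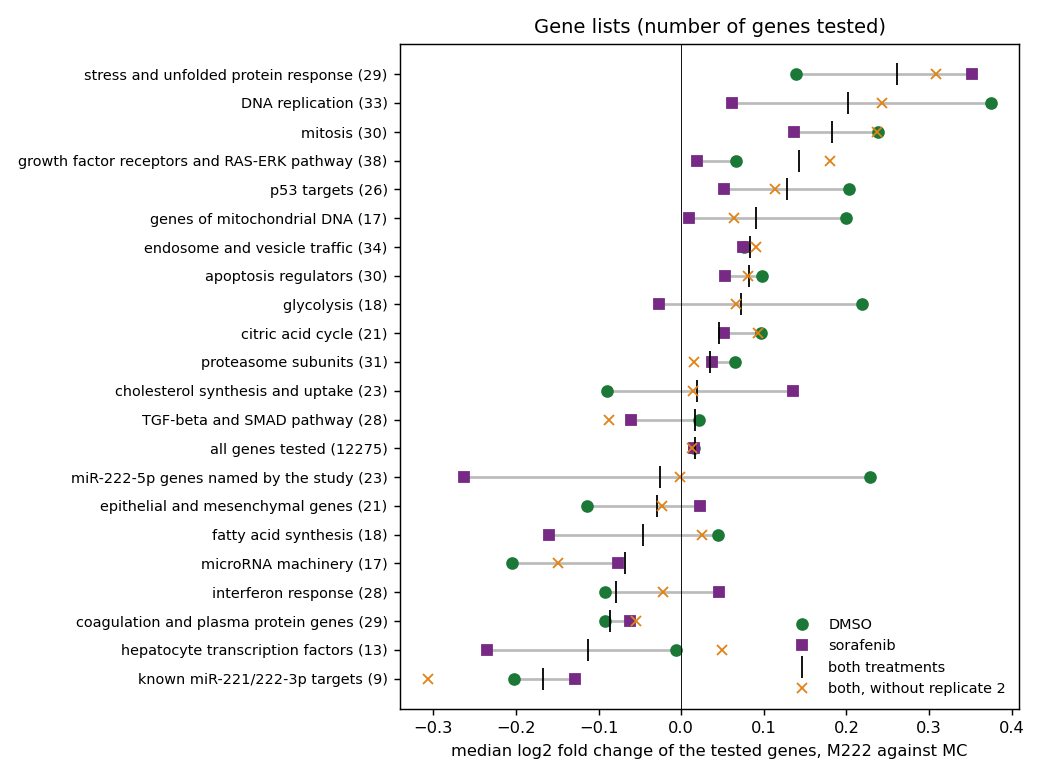
Median log2 fold change of M222 against MC (x axis) over the tested genes of each list (y axis, number tested in brackets), in DMSO, in sorafenib, in both treatments together and in both without replicate 2. All medians over both treatments lie between -0.17 and 0.26, and the stress and unfolded protein response list is the highest.

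Set directly against the miR-512-3p mimic in the same 2 treatments, M222 differed in 234 of 12205 genes (1.92%), 119 higher and 115 lower. This comparison does not use the MC libraries but uses the M222 libraries again. The count was 182 without replicate 2 (59 higher, 123 lower), 8 without replicate 1 and 12 without replicate 3. It was 122 without M222_DMSO replicate 3, 133 without M222_sorafenib replicate 1, 115 without M222_sorafenib replicate 3, and 133, 131 and 140 without the miR-512-3p replicates 1, 2 and 3 in DMSO. Genes with an 8mer of miR-222-5p stood at -0.23 in it and genes with an 8mer of miR-512-3p at 0.19, beside 0.02 and -0.03 for genes with no site of the miRNA in question. APOH was at -1.24 (edgeR adjusted p 0.00423), SMIM24 at -1.60 (edgeR adjusted p 0.0129), GNA12 at -1.95 (edgeR adjusted p 0.00126) and PPP2R5E at -0.81 (edgeR adjusted p 0.0171). SEPTIN2, at 0.02 (edgeR adjusted p 0.984), and AKAP9, at -0.54 (edgeR adjusted p 0.164), also have printed sites and did not pass this test. Of the 39 lower genes 20 passed it as lower, and of the 19 higher genes 1 passed it as higher. The M222 libraries are shared with the test against MC, which favours such passes. The 39 lower genes had a median of -0.99 against MC and of -0.81 against the miR-512-3p mimic (-1.95 to 0.49), and the 19 higher genes of 0.77 and 0.19 (-0.29 to 0.67), beside 0.02 and -0.001 for all genes tested. Among the lower genes PLPP3 was at 0.48, SNORD13 at 0.49 and GOLGB1 at 0.19 against the miR-512-3p mimic, and among the higher POP7 was at -0.26 and TRMT6 at -0.29, all with the opposite sign (edgeR adjusted p 0.327, 0.625, 0.818, 0.44 and 0.445). COX7C was at 0.04 and PCLAF at 0.19 (edgeR adjusted p 0.957 and 0.639).

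Some values are limited by the method. Of the 58 called genes 17 overlap another gene with a mean of at least 1 CPM, 14 of them one on the other strand, and the sources used here do not say whether the counting used strand.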

How the data were processed

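HepG2 cells transfected with the miR-222-5p mimic or its control were profiled by 3′ mRNA sequencing, 3 libraries per group. According to the study's methods, the authors trimmed the reads, aligned them to GRCh38 with STAR and ran HTSeq-count, all within the Bluebee pipeline for QuantSeq, and the raw counts they deposited are used here. The annotation release and strand setting are not given in the sources used here, and the authors' normalised table was not used. Lines naming no gene (92, with 3 counts in all) were left out.

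Counts were tested with edgeR 4.0.16 in R 4.3.3 (filterByExpr, TMM, quasi-likelihood, Benjamini-Hochberg) on treatment plus mimic. The design within each treatment and the interaction used 1 mean per group, and M222 was set against the miR-512-3p mimic with treatment as a covariate. Alternatives were DESeq2 1.42.0, other scalings and filters, a replicate block and leaving out libraries. The scripts were checked on simulated data.

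3′ UTRs were those of the canonical transcript of each gene in GENCODE 44 (56104 of 60107 gene identifiers matched, 18987 with a 3′ UTR). The site classes had no part in the fit. Counts per library set the precision, without molecular identifiers.

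Named genes were the 12 largest rises and falls with a mean of at least 5 CPM, the 12 of lowest p in each direction without replicate 2, the called or 2 lowest-p members of each list, and 8 genes with an 8mer. The other called genes, and RECK and BMF as the ends of their list, were named after their values were seen. Some members of the lists are not reported here. The members and gene lists were chosen with earlier results of these data known.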

Additional observations from a re-analysis of the deposited data

How the results depend on the processing

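Without a filter on low counts edgeR called 243 genes for the mimic over both treatments (58 with the filter), 59 in DMSO, 58 in sorafenib, 2 for the interaction and 386 against the miR-512-3p mimic. DESeq2 called 251, 35, 12, 1 and 472 in the same order. With single libraries or a whole replicate number left out, the counts ranged from 0 to 103 over both treatments, 0 to 26 in DMSO, 0 to 20 in sorafenib and 8 to 308 against the miR-512-3p mimic, and stayed at 0 for the interaction. Without replicate 1 or without replicate 3 in all groups, 0 genes were called over both treatments (1150 and 729 at an unadjusted p under 0.05). With library totals as the scale 74 genes were called, of which 17.6% were higher, against 32.8% with TMM, and the median of genes with no site was 0.00434 in place of 0.0577. That median was 0.023 to 0.0647 when single libraries or replicate 2 were left out. The share of genes with the same sign in both treatments was 64.1% at a mean of at least 5 CPM and 58.9% without replicate 2. The 8mer median stayed between -0.34 and -0.25 under the alternatives for which it was taken. These were the longest 3′ UTR, a mean of at least 5 CPM, library totals, and leaving out replicate 2 or single libraries. It was not taken under the other alternatives, among them leaving out replicate 1 or replicate 3 in all groups. Of the 58 called genes 58 were also called by DESeq2, 52 with library totals and 47 in a fit of 18 libraries. Of 2253 values of the 98 named genes under the alternatives, 0 changed sign, 603 lost a call and 69 gained one. Only the 58 called genes could lose a call, so all 603 losses fell on them. Most named genes were chosen by low p in these same libraries, so the kept signs were largely set in advance.

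The main fit was planned without a replicate block, because the study's methods describe none. Same-numbered MC and M222 libraries deviated together in DMSO (correlations of 0.31, 0.26 and 0.31) but not in all of sorafenib (0.08, 0.31 and -0.01). The main fit leaves any such shared variation in its spread. With a replicate block 120 genes were called over both treatments, among them all 58. It also called 8 named genes that the model without it did not, ANKRD1, KPNB1, TM7SF2, AURKA, PRKRA, TP53INP1, HIF1AN and PLA2G2A. M222 replicate 3 in sorafenib correlated better with MC replicate 1 (0.09) than with its own number, while the other M222 libraries correlated best with theirs, a hint from the data and not from the design.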

Other observations

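Some list members named by their low p have not been described, and none of them passed edgeR's test over both treatments, where values are log2 fold changes of M222 against MC. Among growth factor genes, the receptor FGFR1 was at 0.36 and the ERK-responsive transcription factor ETV4 at 0.56 (edgeR adjusted p 0.291 and 0.255). In DMSO and in sorafenib FGFR1 was at 0.37 and 0.35 and ETV4 at 0.92 and 0.20. Among TGF-beta genes, ID1, an inhibitor of differentiation factors, was at 0.42 and CCN2, a matricellular growth factor, at 0.48 (edgeR adjusted p 0.301 and 0.28). Of epithelial and mesenchymal genes, the claudin CLDN4 was at 0.33 and the integrin subunit ITGAV, with a 7mer-A1, at -0.49 (edgeR adjusted p 0.466 and 0.309).

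Of apoptosis regulators, the survival factor BCL2L2 was at 0.74 (edgeR adjusted p 0.507). Of proteasome subunits, PSMC6 was at -0.41 and PSMB2 at 0.34, and PSMB2 has 2 sites of the 7mer-m8 kind (edgeR adjusted p 0.269 and 0.23). SDHD, a subunit of succinate dehydrogenase with a 7mer-m8, was at 1.03 (edgeR adjusted p 0.347). Of the genes of mitochondrial DNA, MT-ND6 was at 0.49 and MT-CYB at 0.18 (edgeR adjusted p 0.205 and 0.541). In DMSO and in sorafenib MT-ND6 was at 0.41 and 0.56 and MT-CYB at 0.36 and 0.01.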
